A study of Mus musculus with 2 samples.

Results

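Axon guidance ligands and receptors are described here across the cells of control and mutant mouse cerebella at E16.5. The members were taken by gene symbol alone: class 3 to 7 semaphorins, plexins, neuropilins, ephrins, Eph receptors, Slits, Robo receptors, netrins, UNC5 receptors and Dcc. This rule found 72 of the 32285 genes listed, namely 20 semaphorins, 2 neuropilins, 12 plexins, 8 ephrins, 14 Eph receptors, 3 Slits, 4 Robo receptors, 4 netrins and 5 netrin receptors. Of the 12 plexin symbols, 3 are antisense transcripts of Plxna4 (Plxna4os1, Plxna4os2 and Plxna4os3), which leaves 69 ligand or receptor genes. Single-cell 3' RNA libraries were made from whole cerebella after enzymatic dissociation and removal of dead cells by sorting. The control library came from cre-negative embryos, whose floxed alleles the labels do not list. The mutant library came from embryos with cerebellar lesions that carried the Blbp-cre driver, a Ctnnb1(ex3)fl allele over a wild-type one, and Smarca4fl/fl. In them Cre, driven by the promoter of the radial glial gene Blbp (Fabp7), recombines the floxed exon of 1 Ctnnb1 allele, which stabilises beta-catenin, and both alleles of Smarca4, the ATPase of the BAF chromatin remodelling complex. Material from 3 samples per genotype was combined before loading, so each genotype is 1 library, the spread between animals is unknown and no p-value can be given.

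Guidance cues are read by growth cones and migrating cells as attraction, repulsion or adhesion. Secreted class 3 semaphorins bind neuropilins that signal through plexins, membrane-bound semaphorins bind plexins directly, ephrins and Eph receptors signal between touching cells, Slits act through Robo receptors, and netrins attract through DCC and repel through UNC5 receptors. In the cerebellum these families are known for steering precursor migration from the rhombic lip (netrin and Slit signals, Unc5c), for the inward migration of granule cells (Sema6a and Plxna2, Plxnb2) and for arranging its axons and vessels.

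After filtering, 16812 control and 16482 mutant cells remained, with 193157898 and 186227263 unique molecular identifiers (UMIs, counted molecules) and medians of 10261 and 9936 UMIs per cell. Between the libraries, 67 kept barcodes were shared. Levels are given as CPM, a gene's UMIs per 1000000 UMIs of the same cells, and a 95% interval on a level or ratio covers counting error only. A gene was compared if it reached 10 CPM in either library, and was called higher or lower when the ratio of CPM + 1 passed 1.5-fold and the exact binomial interval of the ratio lay on 1 side of 1. Smarca4 stood at 68.5 CPM in the control and 49.9 CPM in the mutant library, and Ctnnb1 at 119 and 173 CPM; 3' tags lie outside the recombined exons, so neither level checks the deletion. Cells were assigned to types by marker gates, and 12 types with at least 100 cells in each library were compared. Cells with at least 5 of 10 genes known from the lesion (Fstl4, Adamts19, Wif1, Notum, Rgs6, Hpse2, Tmem132c, Nkd1, Lef1 and Axin2), called lesion-gene cells below, were 40.5% of mutant and 0.416% of control cells. Of control cells 15.8%, and of mutant cells 2.72%, were granule neuron-like, and neurons expressing the transcription factors Lhx2 and Lhx9 were 1.53% and 7.43%. In sums over a library, fewer cells of a type and less RNA per cell cannot be told apart.

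Over the whole libraries, 38 members reached the floor, and 11 of them were higher and 6 lower in the mutant library. Of all 9812 genes compared, 8.13% were higher and 5.81% were lower. The median log2 ratio was 0.06 over the members and 0.03 over all genes. The 11 that were higher were the receptors Nrp2, Nrp1, Plxna4, Ephb1, Epha4, Epha6, Robo1 and Unc5d and the ligands Sema6d, Slit1 and Slit2. The 6 that were lower were the ligands Sema3a and Ntn1 and the receptors Epha5, Dcc, Plxnb2 and Ephb2. Both neuropilins and 2 of 3 Slits were higher, while no ephrin passed.

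**Figure D1:**
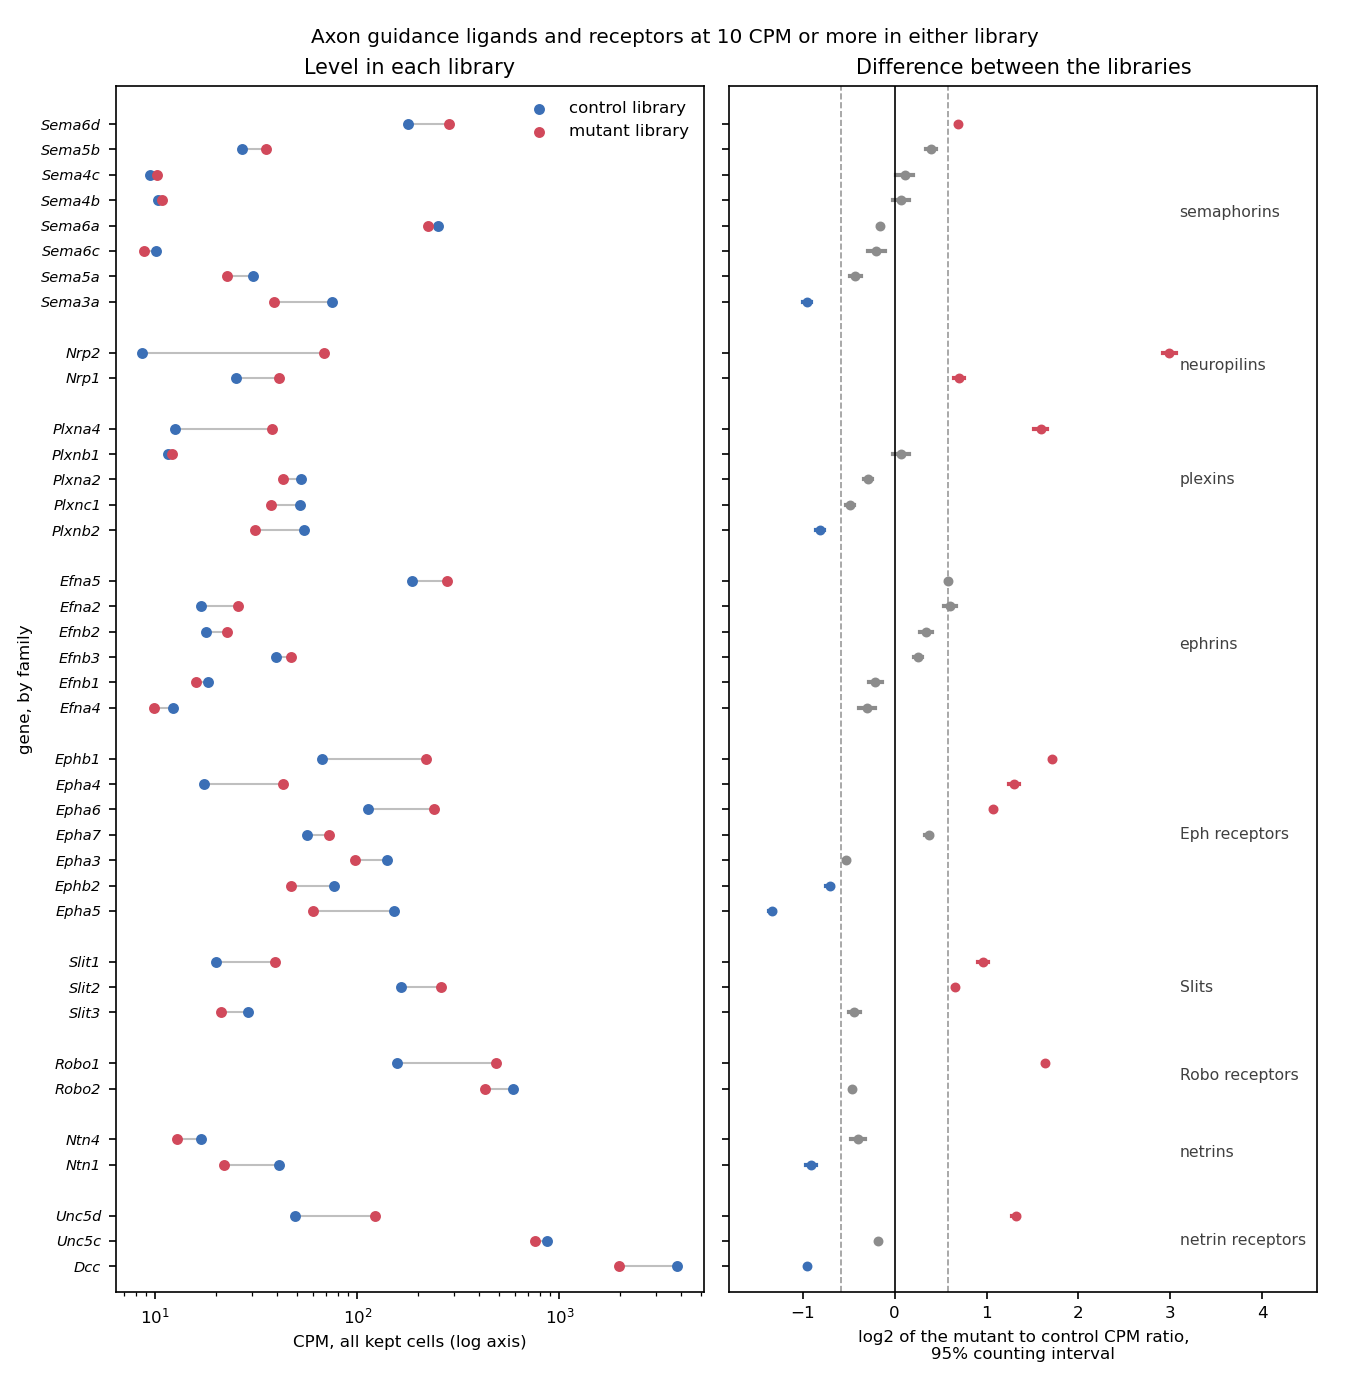
Levels of the 38 guidance genes at 10 CPM or more (left, CPM on a log axis, control in blue and mutant in red) and the log2 ratio of mutant to control CPM with its 95% counting interval (right, red for higher, blue for lower, grey for neither; dashed lines mark 1.5-fold). Nrp2 lies farthest to the right, at 8.64 and 68.7 CPM, and Epha5 farthest to the left, at 152 and 60.2 CPM.

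Nrp2, the neuropilin that serves Sema3f and vascular endothelial growth factor C, showed the largest difference of any member. It had 1669 UMIs or 8.64 CPM in the control library and 12784 UMIs or 68.7 CPM in the mutant library, a ratio of 7.95 (95% interval 7.55 to 8.37). The gene lies on the plus strand at chr1:62703285-62818695 (GRCm38). Because Wnt signalling through beta-catenin acts by way of TCF/LEF factors, the promoters of the members were searched for the short TCF/LEF motif CTTTGAT on either strand (reverse complement ATCAAAG). RefSeq promoter windows of GRCm38.p6 were found for 59 of the 72 members. Among their 75 windows of 250 bases before a start site, 1 held the motif, that of Nrp2, against 3.21% of the 32851 windows of all genes. It is printed here because it was the only match, and 1 of 75 is a smaller share than 3.21%. The stretch at chr1:62703067-62703284 on the plus strand ends where the annotated Nrp2 gene begins, has a GC content of 72.5%, and carries the motif (capitals) at chr1:62703171-62703177, starting 146 bases before the RefSeq start.
Nrp2 promoter: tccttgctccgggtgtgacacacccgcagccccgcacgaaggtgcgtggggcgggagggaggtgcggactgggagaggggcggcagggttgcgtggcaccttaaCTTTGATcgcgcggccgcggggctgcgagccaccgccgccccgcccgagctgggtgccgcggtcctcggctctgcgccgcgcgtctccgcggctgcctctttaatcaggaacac
A match describes these letters and does not show that a factor binds there.

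Among the other ligands, Sema6d, a transmembrane semaphorin that binds Plxna1, stood at 178 CPM in the control and 286 CPM in the mutant library (ratio 1.61, 1.59 to 1.63). Slit1 stood at 20 and 38.9 CPM (ratio 1.95, 1.87 to 2.03), and Slit2 at 164 and 259 CPM (ratio 1.58, 1.56 to 1.60). Both are secreted Robo ligands, and the third, Slit3, was at 28.8 and 21.2 CPM, within 1.5-fold. Ntn1, the ligand of Dcc and the UNC5 receptors, was at 41.2 CPM in the control and 22.0 CPM in the mutant library (ratio 0.534, 0.514 to 0.554). It overlaps Gm12305 on the same strand, so reads of the pair may be split. The same limit holds for Slit2 (Gm20475), Slit3 (Gm12122), Ephb1 (Gm29388) and Ntn3 (Tbc1d24). Sema3a, a secreted repellent, was at 75.1 and 38.8 CPM (ratio 0.517, 0.502 to 0.531). Of the 6 ephrins compared, Efna5 was at 187 and 279 CPM (ratio 1.49, 1.47 to 1.51) and Efna2 at 16.8 and 25.5 CPM (ratio 1.52, 1.45 to 1.59), which passes 1.5-fold before 1 CPM is added and not after.

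Among the receptors, Robo1 was at 157 CPM in the control and 486 CPM in the mutant library (ratio 3.11, 3.07 to 3.15), whereas Robo2 was at 590 and 428 CPM and did not pass. The Eph receptors, tyrosine kinases of the A and B classes, went both ways. Ephb1 was at 66.9 and 219 CPM (ratio 3.28, 3.22 to 3.35), Epha4 at 17.5 and 43.0 CPM and Epha6 at 113 and 239 CPM, all higher in the mutant library. Epha5 was at 152 and 60.2 CPM (ratio 0.396, 0.387 to 0.405) and Ephb2 at 76.9 and 47.2 CPM, both lower. Plxna4, a plexin that partners neuropilins, was at 12.6 and 37.7 CPM (ratio 3.01), and Plxnb2, the plexin of granule cell precursors, at 54.7 and 31.2 CPM (ratio 0.570). Epha3 (141 and 97.4 CPM), Plxnc1 (52.2 and 37.2 CPM), the ligand Sema5a (30.5 and 22.7 CPM) and Ntn4 (16.9 and 12.8 CPM) were within 1.5-fold.

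The netrin receptors differed from each other in the same libraries. Dcc had 3824 CPM in the control and 1968 CPM in the mutant library (ratio 0.515, 0.513 to 0.517). Unc5d had 49.3 and 122 CPM (ratio 2.49, 2.43 to 2.55). Unc5c, whose loss disrupts the rostral border of the granule cell layer, was at 865 and 760 CPM (ratio 0.879), within 1.5-fold. With the lesion-gene cells left out of both libraries Unc5c stood at 859 and 434 CPM (ratio 0.505), and Dcc at 3802 and 2145 CPM.

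These sums follow which cells each library holds as well as the level within them. When the mutant gate levels were weighted by the control library's shares of each gate, 6 of the 11 higher members still passed 1.5-fold (Nrp2, Unc5d, Robo1, Ephb1, Plxna4 and Epha4) and 1 of the 6 lower members did (Epha5). No share over all genes is given for this setting, so these counts describe the members alone. The weighted gate levels also hold any free RNA in the droplets, which is set out below. Without the lesion-gene cells, 8 members were higher and 6 lower, where 6.48% and 5.13% of all genes were. These were partly other members. Slit1, Slit2, Sema6d and Epha6 were no longer called higher and Plxna1 was; Sema3a, Ntn1 and Plxnb2 were no longer called lower, and Unc5c, Epha3 and Sema5a were. Nrp2 was then at 8.54 and 28.7 CPM, and the log2 ratio of Slit1 went from 0.93 to -0.013. Length also moved with the result: the 11 higher members and 5 of the 6 lower ones each span at least 100 kb in the annotation, and of all compared genes that long 18.3% were higher and 8.21% lower, against 5.68% and 5.23% of shorter genes. Of the 28 members that long, 11 were higher, and of the 10 shorter ones none was. The part of gene length in these differences was not tested.

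The other 34 members stayed below 10 CPM in both libraries, at 9.91 CPM or less, and none was at 0 UMIs in either. Robo3, which lets commissural axons cross the midline, had 5.83 CPM in the control and 0.832 CPM in the mutant library. Its highest control levels were in hindbrain neurons marked by Hox genes (130 CPM) and in GABAergic interneuron-like cells (47.7 CPM), which were 1.25% and 3.40% of control cells and 0.109% and 0.461% of mutant cells. With mutant gate levels weighted by the control library's shares, Robo3 was at 5.83 CPM in the control and 1.225 CPM in the mutant library. The part of cell shares in its difference was not tested. Sema7a, a semaphorin anchored to the membrane by lipid, had 9.30 and 2.60 CPM. Plxna1, the plexin for Sema6d, was at 3.47 and 9.91 CPM. The antisense Plxna4os3 had 0.559 and 1.77 CPM, and the other antisense transcripts of Plxna4 were under 0.3 CPM (Plxna4os1 at 0.207 and 0.258 CPM, Plxna4os2 at 0.0311 and 0.113 CPM). Plxna4os1 had 40 control and 48 mutant UMIs, of which microglia-like cells held 20 and 17 (10.5 and 14.8 CPM). Endothelial-like cells held 14 and 13 of them (6.05 and 4.38 CPM).

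In the control library several members stood higher in a cell type than in all other cells combined. Cells joined each gate by its fixed markers, so enrichment of those markers follows from the gating and does not test the gate names. At least 4 of the listed markers stood at 2-fold or more over other cells in each control gate. In the mutant gates checked, at least 3 did. The mutant PTF1A-lineage progenitor-like (7 cells), Hox hindbrain neuron-like (18 cells) and Schwann-like (8 cells) gates were not checked. In endothelial-like cells Robo4, the vascular Robo, was at 55.8 CPM against 0.0524 CPM in all other cells. Efna1 was at 64.0 against 1.46 CPM there, and Plxnd1, the Sema3e receptor of vessels, at 102 against 4.95 CPM. The mutant endothelial-like cells held 55.0 CPM of Robo4, 53.9 CPM of Efna1 and 106 CPM of Plxnd1, each within 1.5-fold of the control. Nrp2 also stood above other cells in the control endothelial-like gate, at 99.4 against 7.54 CPM, and was at 139 against 67.5 CPM in the mutant one. Mural-like cells had Unc5b at 48.0 against 6.54 CPM, a level that endothelial-like cells shared (51.0 CPM), and Sema4c at 47.0 against 8.85 CPM. Fibroblast-like cells carried Epha7 at 316 against 48.1 CPM and Sema5a at 123 against 27.6 CPM. Microglia-like cells carried Sema4d, the ligand of Plxnb1, at 44.7 against 6.06 CPM and Nrp2 at 30.5 against 8.42 CPM. Nrp1 was also above other cells, at 153 against 23.1 CPM in mural-like and 116 against 24.2 CPM in microglia-like cells. In fibroblast-like cells it was at 93.1 against 22.9 CPM. Endothelial-like cells held more Nrp1 than these, 180 CPM, against 25.1 CPM over the whole control library. Erythroid-like cells had no such member: the 3 nearest to the other cells were Slit2 (64.7 against 167 CPM), Dcc (1197 against 3905 CPM) and Epha6 (27.3 against 116 CPM), all lower.

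Motile ciliated-like cells had Efnb3 at 875 CPM, Ntn1 at 418 CPM and Slit2 at 1039 CPM in the control library, against 33, 38.3 and 158 CPM in other cells. In the mutant library the same gate, with 58 cells, had 811 CPM of Efnb3, 410 CPM of Ntn1 and 883 CPM of Slit2. Roof plate- or rhombic lip-like cells had Slit2 at 1331 CPM and Efnb3 at 334 CPM in the control, and 902 and 234 CPM in the mutant library. The receptor Epha7 was also above other cells there, at 231.5 against 54.9 CPM in the control library. Both gates held fewer than 100 mutant cells and were not compared. Choroid plexus-like cells carried 2 secreted semaphorins, Sema3b (22.4 against 0.603 CPM) and Sema3c (27.4 against 2.14 CPM), and the receptor Epha4 (37.7 against 17.0 CPM). The 46 control Schwann-like cells had more of both semaphorins, 38.4 CPM of Sema3b and 139 CPM of Sema3c, and 22.2 CPM of Ntn5 against 0.0571 CPM in other cells.

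Within the neural types the receptors and their ligands were also unevenly spread. Progenitor- or astroglia-like cells had the highest control level of any gate for Plxnb1 (33.5 against 8.52 CPM in other cells), Sema5b (73.9 against 20.2 CPM) and Epha4 (48.2 against 13.2 CPM). Unipolar brush cell-like cells, a class of glutamatergic interneuron, had the highest level of Sema3a (294 against 60.8 CPM) and stood above other cells in Unc5d (158 against 42.1 CPM) and Slit1 (57.5 against 17.6 CPM). Granule neuron-like cells had the highest level of Epha5 (340 against 114 CPM) and Epha6 (222 against 91.1 CPM) and more Sema5a than other cells (62.5 against 23.9 CPM), and their precursors had more Sema7a (21.8 against 7.23 CPM) and Robo2 (911 against 536 CPM) and Epha6 at 153 against 107 CPM. Other gates held more of these last genes: endothelial-like cells had 41.1 CPM of Sema7a, mural-like cells 124 CPM of Sema5a, and LHX2 and LHX9 glutamatergic neuron-like cells 1801 CPM of Robo2 and 221 CPM of Unc5d. GABAergic interneuron-like cells had Unc5c at 2708 against 803 CPM and Plxna2 at 148 against 49.5 CPM. PTF1A-lineage progenitor-like cells had Plxna2 at 226 against 49.4 CPM, Ephb1 at 233 against 63.7 CPM and Robo1 at 406 against 152 CPM. Oligodendrocyte precursor-like cells had Sema5a at 95.1 against 29.0 CPM, Epha4 at 43.9 against 16.9 CPM and Sema5b at 57.1 against 26 CPM. LHX2 and LHX9 glutamatergic neuron-like cells had Efna5 at 954 against 176 CPM, Sema3f, the main Nrp2 ligand of the class 3 semaphorins, at 21.5 against 1.99 CPM, and Plxna1 at 20.1 against 3.23 CPM. Hox hindbrain neuron-like cells, with the Robo3 given above, had Nrp1 at 163 against 22.8 CPM and Nrp2 at 54.8 against 7.87 CPM. The 75 Purkinje-like cells had Unc5d at 324 against 48.4 CPM, Plxna4 at 48.9 against 12.4 CPM and Efna3 at 23.6 against 3.74 CPM. Of the smallest neural gates, the 37 TFAP2D midbrain neuron-like cells had Efna5 at 526 against 186 CPM, Slit1 at 73.5 against 19.9 CPM and Robo3 at 34.5 against 5.76 CPM. The 36 midbrain GABAergic neuron-like cells had Efna5 at 628.5 against 186 CPM, Epha10 at 44.5 against 2.85 CPM and Plxna1 at 20.9 against 3.43 CPM. Of 38 members at the floor, 27 had their highest level in the same of the 12 compared gates in both libraries, with no share over all genes given beside it.

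**Figure D2:**
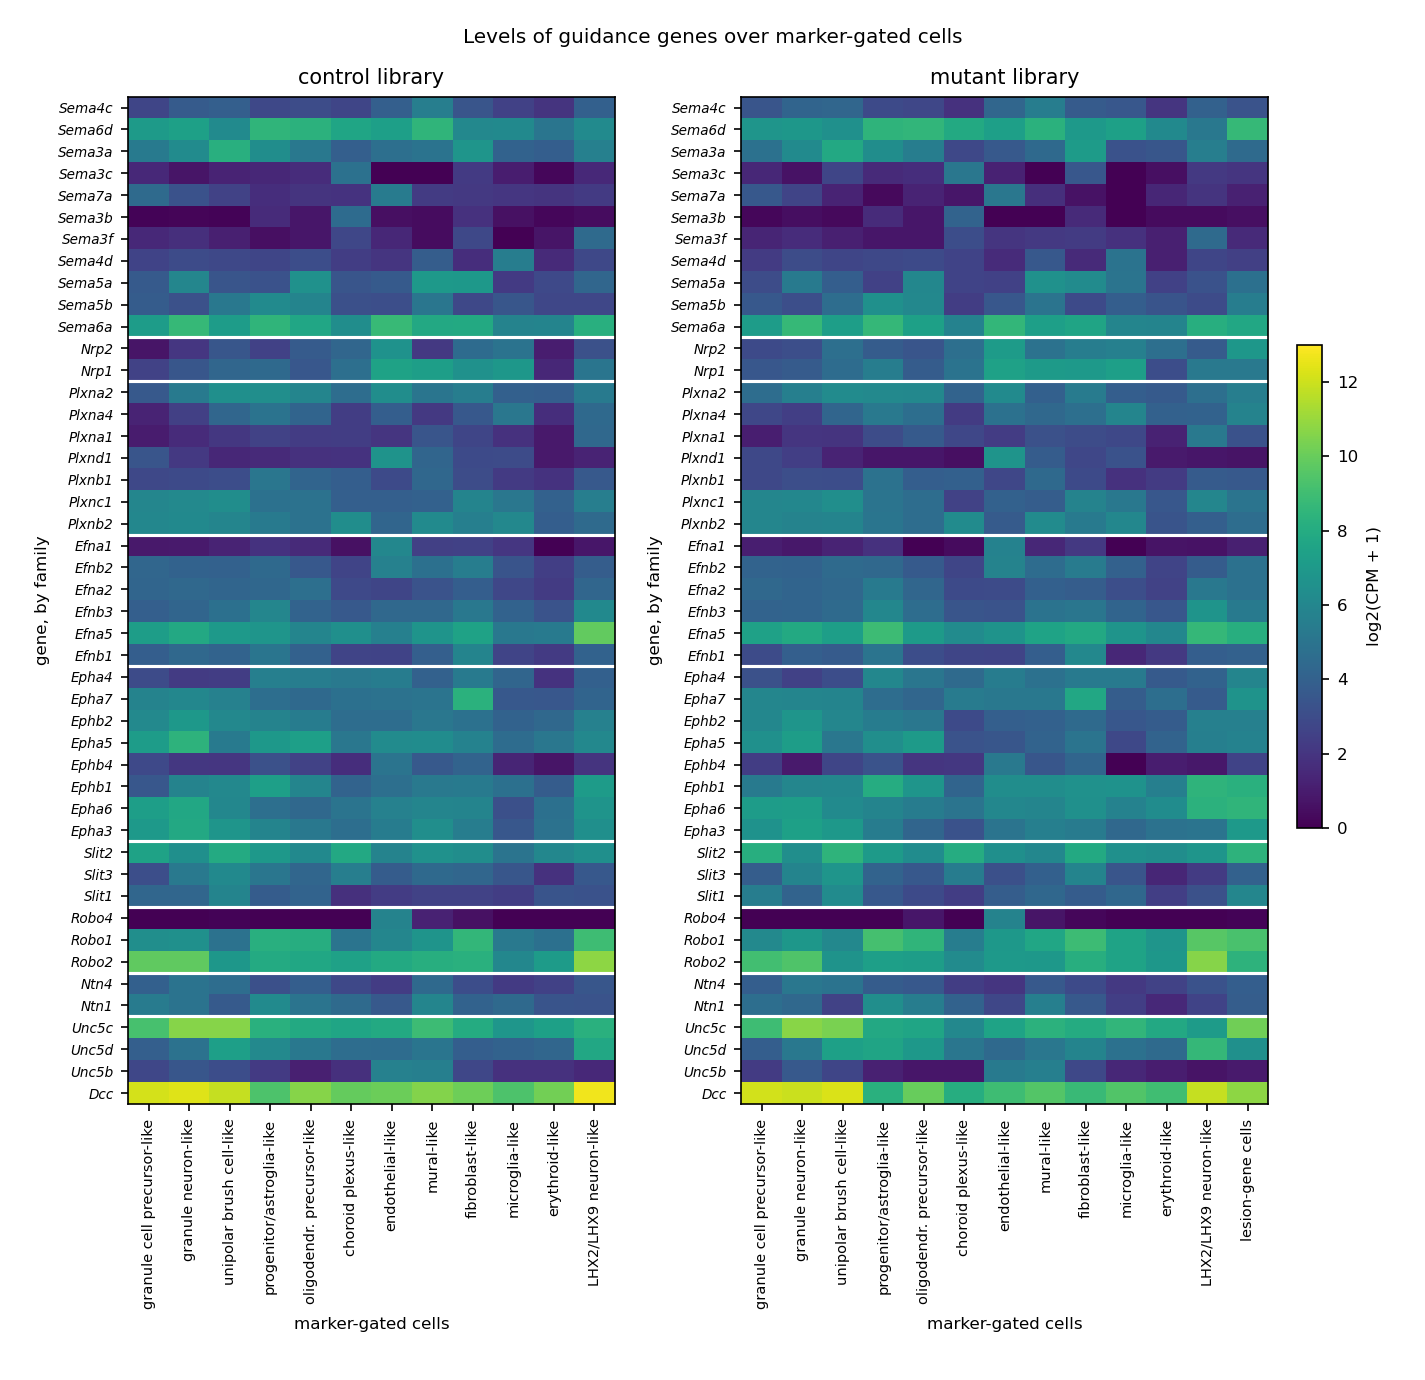
Level of each guidance gene that reaches 20 CPM in a compared gate, as log2(CPM + 1), in the 12 compared gates of the control library (left) and in the same gates and the lesion-gene cells of the mutant library (right), with white lines between families. Single bright cells for Robo4, Plxnd1 and Efna1 in the endothelial-like column appear in both panels, and the Nrp2 row is brighter in lesion-gene cells (116 CPM) than in progenitor- or astroglia-like cells of either library (4.79 and 12.6 CPM).

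Some UMIs of any gene come from free RNA in the droplets, so each level was set against a cap: the lower of the mean UMIs per cell in microglia-like and erythroid-like cells of the same library, cells that should lack most neural guidance genes. For Dcc the control cap was 8.74 UMIs per cell and the mutant cap 7.49. Granule cell precursor-like cells held 65.5 and 59.3 UMIs of Dcc per cell, above it, while control progenitor- or astroglia-like cells held 7.33 and mutant ones 3.39, below it. For Nrp2 the control cap was 0.0254 UMIs per cell and the mutant cap 0.528. Lesion-gene cells of the mutant library had 1.48 UMIs of Nrp2 per cell, and endothelial-like cells had 1.05 (control) and 1.64 (mutant). Mutant progenitor- or astroglia-like cells, with 0.142, were under the cap.

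**Figure D3:**
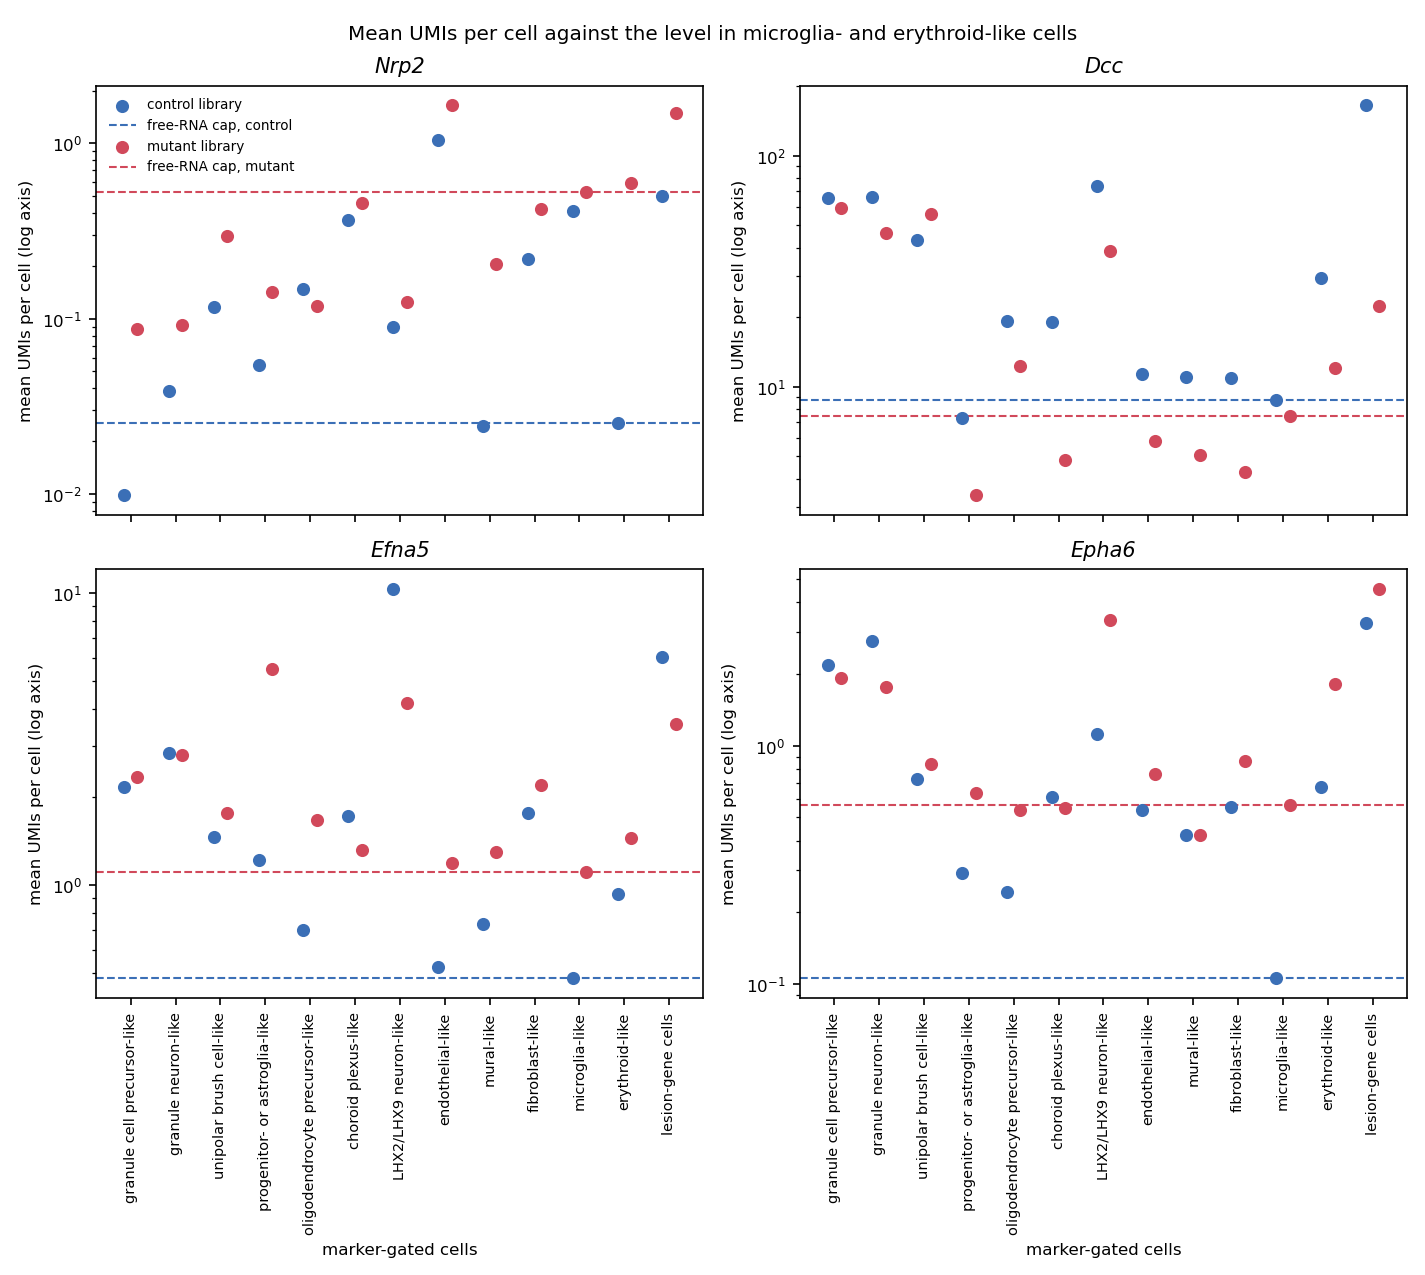
Mean UMIs per cell (log axis) of Nrp2, Dcc, Efna5 and Epha6 in the 12 compared gates and in lesion-gene cells, control in blue and mutant in red, with the free-RNA cap of each library as a dashed line. Apart from the microglia-like and erythroid-like cells that define the caps, mutant Nrp2 passes its cap (0.528) in endothelial-like (1.64) and lesion-gene cells (1.48), and Efna5 in mutant progenitor- or astroglia-like cells (5.47) lies above its cap (1.11).

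Within the 12 compared gates, 82 of 423 member and gate pairs at the floor were higher and 58 were lower in the mutant library, where 4.98% and 4.56% of the 108278 pairs of any gene and gate were. Of these calls, 33 higher and 38 lower ones reached 2 times the cap in the library where the gene was higher. Any level passes a cap of 0, and such calls are counted here, as for Sema3d, with 0 UMIs in mutant microglia-like cells. The cap is the lower of 2 gates, so passing it does not show that a level exceeds free RNA. At least 1 call fell on 37 members: 14 were only higher, 12 only lower and 11 went both ways in different gates. In the 5 non-neural gates 71 pairs were called, 28 of them in the microglia-like and erythroid-like gates that set the cap. In the other 3 non-neural gates 43 pairs were called, and 12 reached 2 times the cap. In the 7 neural and choroid plexus gates 69 pairs were called, and 53 reached 2 times the cap. No share over all genes is given for the counts per member or at 2 times the cap, so these describe the members alone.

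**Figure D4:**
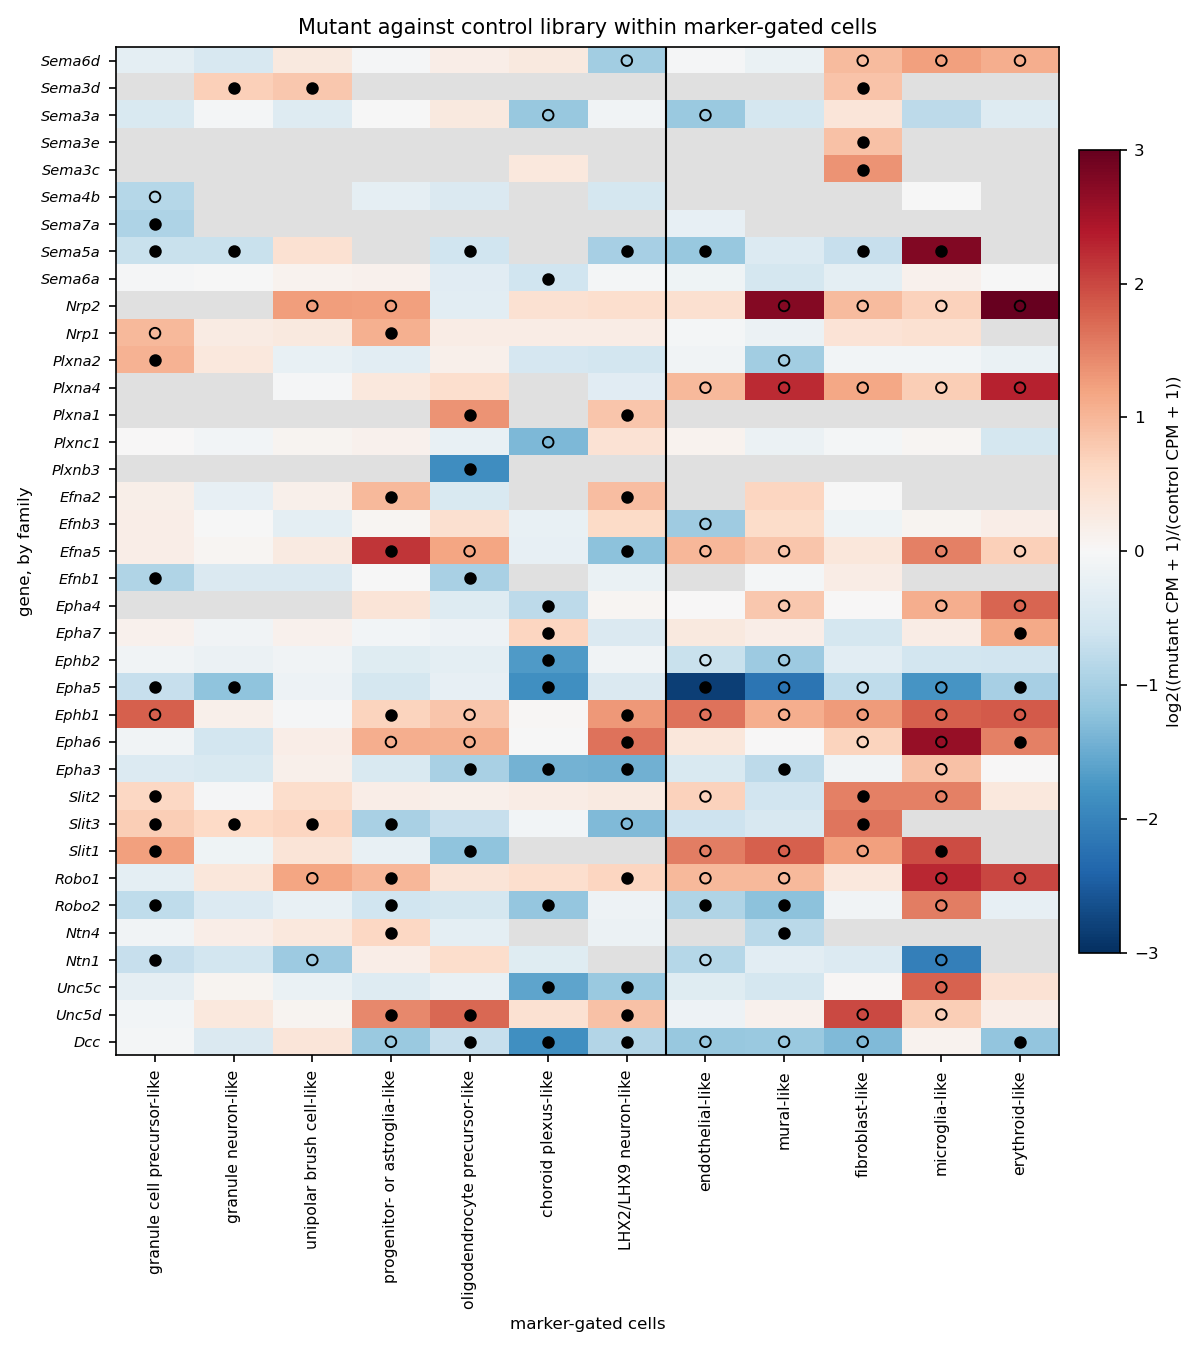
Log2 ratio of mutant to control CPM (1 CPM added to each) for the 37 members called in at least 1 compared gate, with grey squares where a gene stayed below 10 CPM in both libraries. Circles mark calls, filled where the higher library reaches 2 times the free-RNA cap or the cap is 0. The vertical line separates 7 neural and choroid plexus gates from 5 non-neural ones, where 53 and 18 of the circles are filled. The microglia-like and erythroid-like columns set the cap.

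In progenitor- or astroglia-like cells (2091 control and 1334 mutant cells) 9 members were higher and 3 lower, where 2.67% and 4.15% of all genes were. Efna5, a lipid-anchored ephrin, was at 108 CPM in the control and 485 CPM in the mutant cells (ratio 4.49, 4.29 to 4.70). Unc5d was at 68.4 and 189 CPM (ratio 2.76, 2.60 to 2.94), Robo1 at 292 and 579 CPM, Ephb1 at 164 and 260 CPM, and Nrp1, the Sema3a receptor, at 21.1 and 45.2 CPM. Epha6 (26 and 56.3 CPM) and Nrp2 were higher too, but reached 1.12 and 0.268 times the mutant cap. Slit3 was lower, at 32.9 and 16.4 CPM (ratio 0.498, 0.430 to 0.576), and so was Robo2, at 244 and 160 CPM. Dcc was at 650 and 301 CPM and under the cap in both. In the same cells the summed level of the 6 differentiating granule neuron markers was 123 CPM in the control and 48.4 CPM in the mutant library and that of the 10 lesion genes 161 and 474 CPM, with no marker of either list at 0; their part in these differences was not tested.

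Granule cell precursor-like cells (1934 control and 389 mutant cells) had 6 members higher and 7 lower, where 3.69% and 3.2% of all genes were. Slit1 was at 18.3 CPM in the control and 44.2 CPM in the mutant cells (ratio 2.42, 2.06 to 2.83), Slit2 at 181 and 279 CPM, and Plxna2, the Sema6a receptor, at 11.3 and 24.3 CPM. Ephb1 was at 10.4 and 38.5 CPM, below the cap in both. Robo2 was lower, at 911 and 541 CPM (ratio 0.593, 0.571 to 0.617), as were Ntn1 at 41.2 and 24.9 CPM and Sema7a at 21.8 and 10.9 CPM. Sema6a itself was at 147 and 144 CPM, Dcc at 4603 and 4414 CPM and Plxnb2 at 63.9 and 60.9 CPM, all within 1.5-fold. The lower Dcc of the whole library was not seen inside this gate as compared here. The gate leaves out 329 mutant and 3 control cells that met it and also the lesion-gene rule. Dcc was lower in those 329 cells, as given below.

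In granule neuron-like cells (2659 and 448 cells) 2 members were higher and 2 lower, where 1.37% and 2.15% of all genes were. Epha5 was at 340 CPM in the control and 148 CPM in the mutant cells (ratio 0.434, 0.403 to 0.467) and Sema5a at 62.5 and 39.2 CPM. Slit3, at 37.6 and 57.3 CPM, and Sema3d, at 11.3 and 19.0 CPM, were higher. Unc5c was at 1577 and 1658 CPM there. In unipolar brush cell-like cells (1039 and 367 cells) 4 members were higher and 1 lower, where 2.26% and 1.41% of all genes were. Slit3 was at 70.6 and 110 CPM (ratio 1.56, 1.39 to 1.75), at 2 times the cap or more in the mutant library. Nrp2 (10.2 and 25.9 CPM) and Robo1 (29.2 and 67.1 CPM) lay under their caps in the mutant library. The lower member was Ntn1, at 11.8 and 4.99 CPM, and its control level was 0.589 times the control cap.

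LHX2 and LHX9 glutamatergic neuron-like cells (257 control and 1224 mutant cells) had 6 members higher and 7 lower, where 6.13% and 7.62% of all genes were. Epha6 was at 104 CPM in the control and 325 CPM in the mutant cells (ratio 3.13, 2.78 to 3.54), Ephb1 at 141 and 349 CPM (ratio 2.48, 2.23 to 2.76) and Unc5d at 221 and 410 CPM. These receptors were higher, as were Robo1 (497 and 777 CPM), Plxna1 (20.1 and 36.7 CPM) and the ligand Efna2 (18.7 and 36.4 CPM). Efna5 was lower, at 954 and 405 CPM (ratio 0.425, 0.405 to 0.445), the opposite direction to progenitor- or astroglia-like cells. Epha3, a receptor of Efna5, was at 86.5 and 31.3 CPM, Unc5c at 303 and 140 CPM and Dcc at 6828 and 3719 CPM, all lower. The 6 differentiating granule neuron markers summed to 560 and 215 CPM in these cells and 5 of them were lower, with none at 0. The 7 Purkinje cell markers summed to 410 and 993 CPM, with 1 at 0 in each library, and the part of either list in the differences was not tested.

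Oligodendrocyte precursor-like cells (354 and 110 cells) had 5 members higher and 6 lower, where 5.59% and 3.8% of all genes were. Unc5d was at 35.9 CPM in the control and 120 CPM in the mutant cells (ratio 3.35, 2.67 to 4.21) and Efna5 at 58.5 and 135 CPM, the latter at 1.5 times its mutant cap. Epha6, at 20.3 and 43.5 CPM, was under its mutant cap. Epha3 was lower, at 35.6 and 17.7 CPM, as were Sema5a at 95.1 and 62.7 CPM and Plxnb3, a plexin of the oligodendrocyte lineage and a Sema5a receptor, at 10.6 and 2.21 CPM. Choroid plexus-like cells (209 and 405 cells) had 1 member higher, Epha7 at 26.4 and 42.0 CPM, and 10 lower, where 1.99% and 6.71% of all genes were. Their lower members included Epha5 (35.0 and 9.02 CPM), Ephb2 (23.9 and 6.62 CPM) and Dcc (982 and 274 CPM), each near 2 times the cap in the control library, at 2.19, 2.20 and 2.18 times. Control erythroid-like cells held more UMIs per cell of Dcc (29.4 against 19.1) and Epha5 (0.848 against 0.679) than control choroid plexus-like cells. The cap therefore does not show that these 2 levels exceed free RNA. The 6 differentiating granule neuron markers summed to 175 and 52.0 CPM in choroid plexus-like cells.

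Of the non-neural cells, fibroblast-like cells (600 and 551 cells) had 12 members higher and 3 lower, where 5.49% and 3.26% of all genes were. Slit2 was at 82.3 CPM in the control and 237 CPM in the mutant cells (ratio 2.88, 2.59 to 3.21), and Slit3 at 18.3 and 57.8 CPM (ratio 3.16, 2.53 to 3.98), at 2.31 and 14.4 times the mutant cap. The secreted semaphorins Sema3c (3.59 and 10.6 CPM), Sema3d (7.18 and 13.9 CPM) and Sema3e (5.47 and 10.8 CPM) were also higher, but mutant microglia-like cells held 0 UMIs of each, so their mutant cap is 0 and sets no limit. Unc5d, at 13.7 and 57.2 CPM, reached 1.84 times its mutant cap. Their Sema5a was lower, at 123 and 75.6 CPM, as were Dcc (1112 and 447 CPM) and Epha5 (53.3 and 31.0 CPM), the latter pair below 2 times the control cap. In endothelial-like cells 6 members were higher and none of them reached 2 times the cap, and 3 of the 8 lower ones did, among them Epha5 at 77.3 and 10.1 CPM; 4.77% and 4.69% of all genes were higher and lower. The 3 largest higher ones were Ephb1 (25.5 and 80.6 CPM), Efna5 (49.7 and 100.5 CPM) and Robo1 (60.5 and 120 CPM), and Dcc (1076 and 492.5 CPM) and Sema3a (25.9 and 11.5 CPM) were also lower. Mural-like cells gave 7 higher members, none at 2 times the cap, and 7 lower, 3 at 2 times the cap, where 4.09% and 5.56% of all genes were. Nrp2 (3.46 and 29.2 CPM), Plxna4 (3.46 and 20.0 CPM) and Ephb1 (37.7 and 81.8 CPM) were higher there, each under its mutant cap. Epha5 (79.8 and 16.6 CPM), Robo2 (282 and 120 CPM) and Dcc (1553 and 723 CPM) were lower, at 1.82, 2.36 and 1.26 times the control cap. Microglia-like cells gave 15 higher and 2 lower members (12.8% and 5.69% of all genes) and erythroid-like cells 9 and 2 (11.5% and 8.2%), and 6 of these 28 calls reached 2 times the cap in the higher library. Among the microglia-like calls were Sema5a (3.68 and 31.3 CPM), Epha6 (7.88 and 53.1 CPM) and Robo1 (37.8 and 186 CPM), all higher, and Ntn1 (21 and 4.35 CPM) and Epha5 (23.1 and 6.09 CPM), both lower. In erythroid-like cells Nrp2 (1.04 and 25.9 CPM), Robo1 (26.6 and 109 CPM) and Ephb1 (12.8 and 48.3 CPM) were higher, and Dcc (1197 and 524 CPM) and Epha5 (34.5 and 16.8 CPM) lower.

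Lesion-gene cells of the mutant library (6672 cells) were set against progenitor- or astroglia-like cells of the control library (2091 cells). Of 37 members at the floor, 15 were higher and 12 lower in lesion-gene cells, where 17% and 19.3% of all genes were. The median log2 ratio was 0.36 over the members and 0.06 over all genes. Those higher included Nrp2, Epha6, Slit1, Epha7, Unc5c, Dcc and Slit2, and those lower included Ntn1, Ephb3, Sema3a, Plxnb1 and Sema5b. Several of the lower ones had their highest control level in the progenitor- or astroglia-like gate itself (Plxnb1, Sema5b, Ephb3).

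Nrp2 was at 4.79 CPM (95% interval 3.95 to 5.76) in control progenitor- or astroglia-like cells, 12.6 CPM (10.8 to 14.5) in mutant ones and 116 CPM (114 to 119) in lesion-gene cells, a ratio of 24.3 (20.2 to 29.5) to the control cells. After thinning every cell to 3000 UMIs, 22.1% of lesion-gene cells had a UMI of Nrp2, against 2.58% of mutant and 1.27% of control progenitor- or astroglia-like cells. The background share in erythroid-like cells, with median depths of 21912 and 22769.5 UMIs before thinning, was 3.15% in the mutant library, and 0 of 236 cells in the control library, which allows up to 1.27%. The share in mutant progenitor- or astroglia-like cells (median depth 10465 UMIs) was below its background, that in control ones (10431 UMIs) was at the limit its background allows, and that in lesion-gene cells (11159 UMIs) was above background. Unthinned shares were 41.3%, 7.27% and 4.30%.

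The other ligands that were higher in lesion-gene cells were Slit1, at 13 CPM in control progenitor- or astroglia-like and 61.9 CPM in lesion-gene cells (ratio 4.78, 4.26 to 5.38), Slit2 at 119 and 332 CPM (ratio 2.78, 2.68 to 2.89), Sema5a at 8.56 and 27.1 CPM, Efna5 at 108 and 279 CPM and Ntn4, a laminin-like netrin, at 8.01 and 13.8 CPM. Ntn1 was at 74.6 and 13.4 CPM (ratio 0.180, 0.167 to 0.194). The netrin that binds Dcc was lower in the cells where Slit1 and Slit2 were higher. Sema3a was at 83.1 and 21.6 CPM (ratio 0.260, 0.244 to 0.277), Slit3 at 32.9 and 15.3 CPM, and Sema6a at 365 and 219 CPM, all lower. Efnb1 (31.7 and 15.7 CPM) and Efnb3 (61.2 and 38.8 CPM), transmembrane ephrins, were lower as well.

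Among receptors, Epha6 was at 26 CPM in control progenitor- or astroglia-like and 359 CPM in lesion-gene cells (ratio 13.8, 12.7 to 15.0), and Epha7 at 25.3 and 99.6 CPM (ratio 3.94, 3.63 to 4.29). Epha5 and Ephb3, of the same family, were lower, at 121 and 53.3 CPM and at 16.9 and 2.94 CPM. Unc5c was at 302 and 1149 CPM (ratio 3.81, 3.72 to 3.90) and Dcc at 650 and 1757 CPM (ratio 2.70, 2.66 to 2.75). Robo1 was at 292 and 612 CPM, Ephb1 at 164 and 303 CPM, Epha3 at 58.1 and 131 CPM, Plxna4 at 30.0 and 54.7 CPM and Nrp1 at 21.1 and 36.8 CPM, all higher. Plxnb1 was at 33.5 and 11.5 CPM, Plxna2 at 83.7 and 45.7 CPM and Plxnb2 at 39.3 and 24.3 CPM, all lower.

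**Figure D5:**
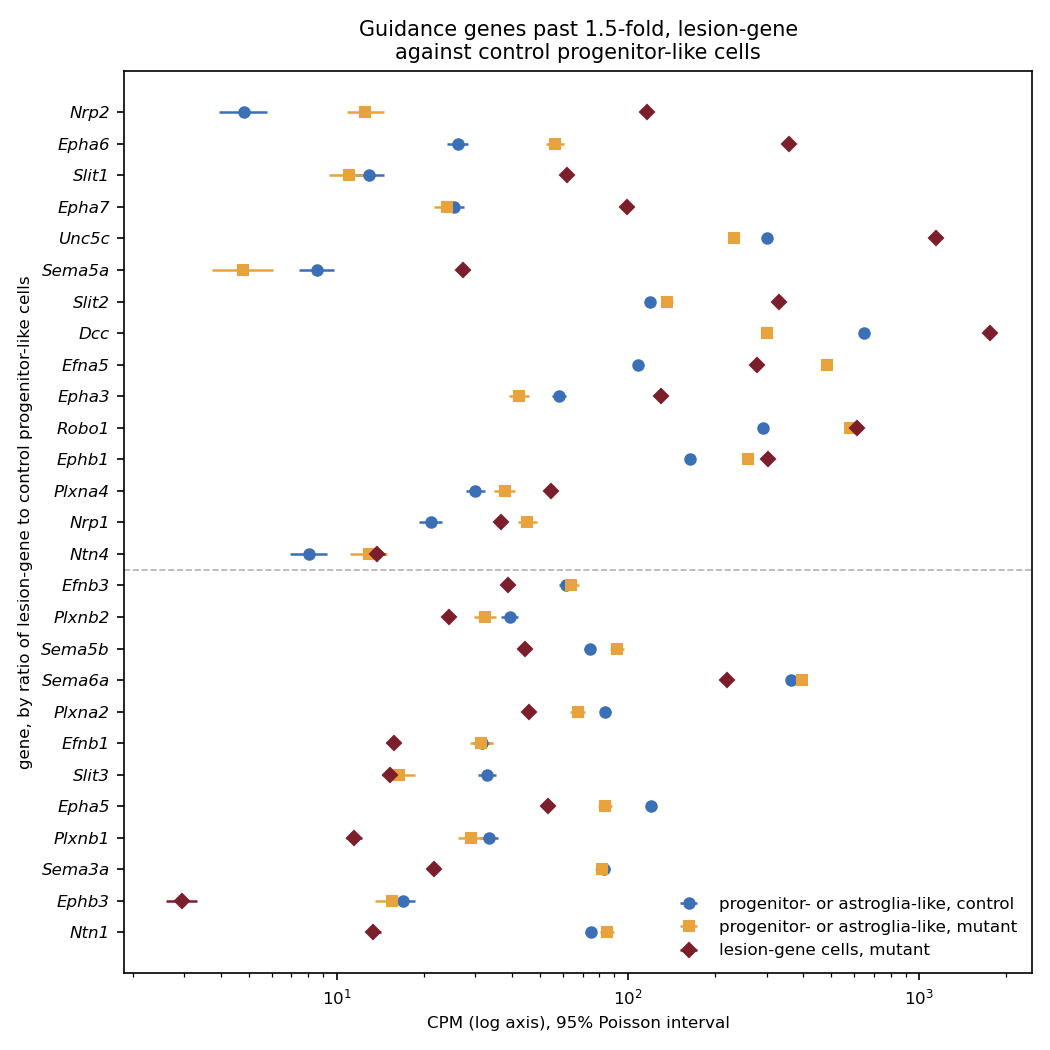
CPM (log axis) with 95% Poisson interval of the 27 guidance genes past 1.5-fold between lesion-gene cells of the mutant library (diamonds) and progenitor- or astroglia-like cells of the control library (circles), with the same gate of the mutant library (squares). Above the dashed line diamonds lie right of the circles, up to 24.3-fold for Nrp2, and for Efna5 the mutant progenitor- or astroglia-like cells (485 CPM) lie right of the lesion-gene cells (279 CPM).

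Against progenitor- or astroglia-like cells of the mutant library instead, 10 members were higher and 11 lower in lesion-gene cells, where 15.2% and 17.6% of all genes were. Over the members the median log2 ratio was then -0.09, and over all genes it was 0.04, so the sign of the member median changed with the comparator. The calls shared by both comparators were 9 higher (Nrp2, Unc5c, Epha7, Slit2, Sema5a, Epha6, Epha3, Dcc and Slit1) and 9 lower (Sema3a, Epha5, Plxnb1, Ntn1, Efnb3, Ephb3, Sema5b, Sema6a and Efnb1). The 2 comparisons share the lesion-gene cells. Robo1 (579 and 612 CPM) and Ephb1 (260 and 303 CPM) were within 1.5-fold of the mutant progenitor- or astroglia-like cells. Efna5 was lower against them, at 485 and 279 CPM, as was Unc5d, at 189 and 90.4 CPM. Robo2 was higher, at 160 and 340 CPM.

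Lesion-gene cells were not uniform in these genes. Of the 6672 cells, 813 also met the progenitor- or astroglia-like gate, 329 met the granule cell precursor-like gate and 4695 met no other gate. Nrp2 was at 40.9 CPM in the 813 cells, 70.7 CPM in the 329 cells and 143 CPM in the 4695 cells. Slit1 ran in the same order of cells, at 14.4, 66.1 and 71.3 CPM. Dcc was at 609, 2051 and 1573 CPM, so that the 813 cells had a level near that of control progenitor- or astroglia-like cells (650 CPM). Ntn1 (30.0, 11.3 and 7.03 CPM) and Sema3a (35.1, 17.5 and 14.2 CPM) ran the other way. Unc5c was at 969, 1018 and 1236 CPM and Slit2 at 331, 334 and 311 CPM, with less difference between the sets. The 9 progenitor markers summed to 14242.6 CPM in the 813 cells, 1871 CPM in the 329 and 1784 CPM in the 4695, and the 6 immature neuron markers to 656, 1701 and 1868 CPM, against 483 CPM in control progenitor- or astroglia-like cells; their part in the member levels was not tested.

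Granule cell precursor-like cells of the control library also held several of these genes, with Nrp2 below 10 CPM. They had 596 CPM of Unc5c, 153 CPM of Epha6, 55.3 CPM of Epha7, 181 CPM of Slit2 and 4603 CPM of Dcc. Nrp2 was at 0.691 CPM (0.416 to 1.08) there, and Robo1, 612 CPM in lesion-gene cells, was at 85.3 CPM. The 70 control cells that met the lesion-gene rule had a median of 22382.5 UMIs, and 18 of them exceeded 30000 UMIs. They had 18.2 CPM of Nrp2 (12.7 to 25.3), 174 CPM of Sema3a and 6001 CPM of Dcc, against 116, 21.6 and 1757 CPM in the mutant lesion-gene cells. Slit2 (354 against 162 CPM) and Slit3 (82.2 against 28.2 CPM) stood above the other control cells in them.

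A list of 52 other genes of guidance signalling (co-receptors, adhesion molecules and signal carriers) was measured beside the members. Over the whole libraries 43 reached the floor, with a median log2 ratio of 0.05. Of these, 8 (18.6%) were higher and 3 (6.98%) lower in the mutant library, where 8.13% and 5.81% of all genes were. Ntng1, a lipid-anchored relative of the netrins, was at 15.7 CPM in the control and 115 CPM in the mutant library (ratio 7.35, 7.07 to 7.64), and the L1-family adhesion molecule Chl1 at 88.6 and 243 CPM. The Rac exchange factor Vav3 (25.0 and 54.0 CPM) and the kinase Pak1 (42.2 and 77.1 CPM) were higher. Lower were the Robo effector Srgap2 (153 and 88.2 CPM), Dpysl4 (41.6 and 23.9 CPM), of the family that relays semaphorin signals, and Neo1, the receptor close to Dcc (194 and 121 CPM).

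Between lesion-gene cells and control progenitor- or astroglia-like cells, 47 of the 52 reached the floor, with a median log2 ratio of 0.16. Of these, 16 (34.0%) were higher and 10 (21.3%) lower, where 17% and 19.3% of all genes were. Ntng1 was at 13.1 CPM in control progenitor- or astroglia-like and 139 CPM in lesion-gene cells (ratio 10.6, 9.47 to 11.9), and Crmp1, a relay of Sema3a signals, at 19.9 and 131 CPM. Vav3 (10.5 and 66.2 CPM) and the Rac exchange factor Tiam1 (11.5 and 68.0 CPM) were higher. Rgma, a ligand of Neo1, was at 218 and 55.9 CPM (ratio 0.256, 0.246 to 0.267), and Neo1 itself at 235 and 131 CPM, so the pair was lower together. Mical1, an oxidoreductase that binds plexins, was lower too, at 10.4 and 5.09 CPM (ratio 0.488, 0.417 to 0.573), as was the plexin partner Farp2, at 19.0 and 8.28 CPM.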

How the data were processed

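The deposited matrices hold the authors' raw UMI counts per gene and cell. The submitters' processing notes name Cell Ranger 7.0.1 and mm10. Intron counting and the annotation release are not stated there; intron reads would raise long genes most. Gene positions come from GENCODE M21 (GRCm38). Barcodes with at least 1000 UMIs, 500 genes and at most 10% mitochondrial UMIs were kept: 16812 of 21457 control and 16482 of 21596 mutant barcodes. A cell joined the gate with the highest mean standardised marker score if at least 3 of its markers were detected, its score was 0.5 or more and it led the next gate by 0.1, which drops cells between types (811 control and 509 mutant cells); no doublet caller was run. Cells that met the lesion-gene rule were counted as lesion-gene cells and left out of every other gate except the 5 non-neural ones. This took 329 mutant and 3 control cells from the granule cell precursor-like gate. From the progenitor- or astroglia-like gate it took 813 mutant and 7 control cells. In no gate were 5140 control and 3364 mutant cells. Raw counts were summed by gate and library and divided by the summed total, as CPM; 1 library per genotype allows no test across genes. Shares of cells were taken after thinning each cell to 3000 UMIs, which left out 391 of 6672 lesion-gene, 94 of 1334 mutant and 205 of 2091 control progenitor- or astroglia-like cells. The comparison was also run on simulated counts with known folds at whole-library depth. Those counts hold counting error alone, without spread between animals, changes in cell mix or free RNA. Python 3.11.15, numpy 2.4.6, pandas 2.3.3, scipy 1.17.1 and matplotlib 3.10.9 were used.

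Members, marker and pathway lists and gates were chosen with earlier results of these data known, and gate thresholds, the free-RNA cap, the split of the lesion-gene cells, the length classes and the promoter search were added after seeing the data. Named are the members with the largest ratios each way (at 20 CPM or more within gates), the 3 highest per gate over other cells, a fixed set of well-known ligands and receptors, and the 4 largest other pathway genes each way; Sema7a, Plxna1, Plxnb3, Sema3c to Sema3e, the antisense transcripts and, in lesion-gene cells, Neo1 were named after their values were seen. Alternatives were all barcodes, cells of at most 30000 UMIs, other scalings, floors and pseudocounts, stricter gates, no thinning, control gate shares and no lesion-gene cells. The result for 1 of the other pathway genes is not reported here.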

Additional observations from a re-analysis of the deposited data

Results flagged for a closer look

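Slit1, Slit3 and Efna5 were called in opposite directions in different neural gates, each at 2 times the free-RNA cap or more in the library where it was higher; with 1 library per genotype the difference between gates was not tested. The mutant to control ratio of Efna5 was 4.49 (95% counting interval 4.29 to 4.70) in progenitor- or astroglia-like cells and 0.425 (0.405 to 0.445) in LHX2 and LHX9 glutamatergic neuron-like cells. That of Slit3 was 1.75 (1.31 to 2.30) in granule cell precursor-like, 1.52 (1.34 to 1.73) in granule neuron-like and 1.56 (1.39 to 1.75) in unipolar brush cell-like cells, but 0.498 (0.430 to 0.576) in progenitor- or astroglia-like cells. That of Slit1 was 2.42 (2.06 to 2.83) in granule cell precursor-like cells, at 18.3 and 44.2 CPM, and 0.396 (0.174 to 0.795) in oligodendrocyte precursor-like cells, at 16.8 and 6.64 CPM.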

How the results depend on the processing

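Depth limits the low members: 34 of 72 stayed under 10 CPM. Over the whole libraries 11 members were higher and 6 lower; at a floor of 50 CPM 7 were higher, with no floor 11 were lower, and at the control library's gate shares 6 were higher and 1 lower. Within gates, 82 were higher and 58 lower; a floor of 50 CPM left 42 and 28, no floor gave 90 lower, calls at 2 times the free-RNA cap numbered 33 and 38, and the 7 neural and choroid plexus gates alone gave 33 and 36, the last pair of settings being chosen after seeing the data. Calls with a cap of 0 count among those at 2 times the cap. For lesion-gene against control progenitor- or astroglia-like cells (15 higher, 12 lower), no floor gave 26 and 20 and a floor of 50 CPM left 7 lower. Of 792 member and gate pairs in the control library, 226 had a share of cells with a UMI above that of erythroid-like cells, and 143 with gates needing 1 marker more; the cause was not tested beyond the fewer genes, cells or gates these settings hold. The log2 ratio of Slit1 was -0.013 without lesion-gene cells. Scaling by the median gene moved microglia-like ratios by 0.11 (log2) and others by less than 0.1. The remaining counts under the other settings were within 1.5 times. Ratios of single members were less steady than these counts. More of them moved than stayed with a pseudocount of 5 CPM, all barcodes, median scaling, control gate shares or no lesion-gene cells. Fewer moved than stayed under other floors or with cells of at most 30000 UMIs. No paired analysis was possible because each genotype is 1 library.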
